A study of Mus musculus with 6 samples.

Results

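The 10 genes described here were grouped as transcriptional targets of p53 in growth arrest, feedback and repair. Cd80 was placed with them, though its role described below, as a membrane protein of antigen presenting cells, is none of these. The genes are Cdkn1a, Mdm2, Ccng1, Btg2, Sesn2, Gadd45a, Trp53inp1, Phlda3, Zmat3 and Cd80. They were taken as every probe set annotated to exactly 1 of these symbols, which gave 21 of the 45101 probe sets on the array and 10 of its 18193 genes named by a single symbol, with 7 of the 10 genes read by more than 1 probe set. The 21 were 4 probe sets for Cd80, 3 each for Mdm2 and Ccng1, 2 each for Cdkn1a, Btg2, Sesn2 and Trp53inp1, and 1 each for Gadd45a, Phlda3 and Zmat3. All 21 were tested, as no filter on low values was used.

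The arrays held total RNA from E14Tg2a, a mouse embryonic stem cell line, taken at 96 h. One group had been transfected with an siRNA duplex against firefly luciferase (control siRNA), and the others with Ncl siRNA #1 or Ncl siRNA #2, a pair of duplexes against Ncl, the gene of the nucleolar protein nucleolin. Each of the 3 groups held 2 arrays of this same line, and no other allele or agent is named. An siRNA acts for a limited time and leaves part of its target, and the labels do not state whether replicates came from separate cultures, so p-values here reflect only array-to-array spread, which may be technical.

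p53 is a transcription factor that is kept scarce in unstressed cells because Mdm2, itself a p53 target, marks it for destruction. DNA damage, or ribosomal proteins set free when ribosome production falters in the nucleolus, can block Mdm2, and p53 then binds paired copies of a short palindromic motif near its targets. Its targets stop the cell cycle, aid repair, limit p53 itself or start apoptosis. Mouse embryonic stem cells divide with a short first gap phase and keep p21, the Cdkn1a product, low.

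The promoters are shown because the genes were chosen as p53 targets and a match to the paired p53 motif lies in one of them. Sequences came from RefSeq (GRCm38.p6), 300 bases from 250 before to 50 after a transcript start, and 8 of the 10 genes had an entry, with 2 entries for Cdkn1a. Trp53inp1 and Zmat3 are named only. Exact matches to the p53 decamer, the 10-base unit of its site, whose consensus reads the same on both strands, were searched in each, and 4 of 9 entries held one, against 8.36% of 32851 promoters of the same length. The 20-base arrangement of a pair of decamers end to end, with at most 1 base off the consensus in total, was found in 1 entry, the upstream start of Cdkn1a, and in 0.0548% of all promoters. That site, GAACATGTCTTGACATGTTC, lies at chr17:29090928-29090947 on the plus strand, from 51 to 32 bases before the upstream start, which is 2790 bases from the downstream start of the gene. It overlaps the decamer GAACATGTCT of the same entry. The entry of the downstream start held no decamer, and neither did those of Btg2, Sesn2, Phlda3 and Cd80. A match describes letters only, and no binding was measured. The genes were chosen as p53 targets, so their share of matches is no test of p53 action in these arrays. Below, capitals mark exact decamers and, in Cdkn1a, the paired site.
Cdkn1a, upstream start, chr17:29090729-29091028, plus strand: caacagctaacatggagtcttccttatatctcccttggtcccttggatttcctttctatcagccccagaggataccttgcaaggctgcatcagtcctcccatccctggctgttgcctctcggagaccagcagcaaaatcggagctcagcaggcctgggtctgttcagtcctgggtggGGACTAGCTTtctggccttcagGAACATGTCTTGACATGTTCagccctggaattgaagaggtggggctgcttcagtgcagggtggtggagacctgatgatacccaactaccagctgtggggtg
Mdm2, chr10:117710709-117711008, minus strand: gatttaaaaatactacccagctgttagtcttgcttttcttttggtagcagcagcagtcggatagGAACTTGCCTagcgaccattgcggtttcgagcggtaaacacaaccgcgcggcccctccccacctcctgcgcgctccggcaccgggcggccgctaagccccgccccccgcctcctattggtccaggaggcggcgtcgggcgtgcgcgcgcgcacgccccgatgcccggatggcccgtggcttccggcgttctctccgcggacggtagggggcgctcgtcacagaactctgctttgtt
Ccng1, chr11:40755237-40755536, minus strand: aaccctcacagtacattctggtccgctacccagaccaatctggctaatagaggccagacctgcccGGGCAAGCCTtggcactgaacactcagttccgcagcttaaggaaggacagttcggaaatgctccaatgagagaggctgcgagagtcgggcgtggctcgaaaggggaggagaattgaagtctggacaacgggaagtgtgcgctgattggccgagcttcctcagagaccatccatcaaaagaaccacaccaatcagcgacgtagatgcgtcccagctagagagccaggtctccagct
Gadd45a, chr6:67037358-67037657, minus strand: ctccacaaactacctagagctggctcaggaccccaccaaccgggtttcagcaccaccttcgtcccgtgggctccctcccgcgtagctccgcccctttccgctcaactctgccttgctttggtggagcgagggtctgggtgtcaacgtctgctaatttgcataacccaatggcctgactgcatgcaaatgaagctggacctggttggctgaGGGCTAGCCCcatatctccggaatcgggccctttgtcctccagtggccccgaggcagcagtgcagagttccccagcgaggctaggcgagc
In Mdm2 the decamer GAACTTGCCT began 186 bases before the start, in Ccng1 GGGCAAGCCT began 185 before it, and in Gadd45a GGGCTAGCCC began 40 before it. The promoters of Cdkn1a (upstream start) and Ccng1 had GC contents of 54.7% and 55.7%, below those of Mdm2 and Gadd45a at 64.7% and 61.0%.

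Values are log2 probe set values as deposited, changes are log2 differences with their standard error (SE), and adjusted p-values are from limma over 45037 probe sets. Array medians lay between 5.73 and 5.79 and lower quartiles between 4.17 and 4.32. The upper quartile was 8.25 on replicate 1 of siRNA #1, 8.10 on its replicate 2 and 8.06 on each of the other arrays. Ncl itself was lower on all 5 of its probe sets, at 37.2% to 72.9% of control with siRNA #1 and at 33.6% to 72.5% with siRNA #2. Markers of embryonic stem cells (10 of 10 measured) averaged 12.54 and 12.56 with the control siRNA, 12.19 and 12.23 with siRNA #1 and 11.95 and 11.97 with siRNA #2. Of these, 8 fell with siRNA #1 and 9 with siRNA #2 (medians -0.40 and -0.61), and Utf1 rose with both (0.42 and 0.17). This list thus moved with the groups too. On the brightest probe set of each gene, 15.4% of all genes fell with siRNA #1 and 20% with siRNA #2. The control arrays also held transcripts of lung epithelium. The 10 measured markers of it averaged 8.50 and 8.68 there against 4.72 to 5.03 in the Ncl siRNA arrays, where Scgb1a1, Bpifa1 and Cyp2f2 lay below the lower quartile. Fibroblast and endothelial markers averaged 6.18 to 6.34 in the control arrays and 5.40 to 5.50 in the others. Of the 10 measured, 6 fell with each siRNA, 3 did not pass and 1, Pecam1, rose (1.72 and 1.27). The 18S ribosomal RNA probe sets averaged 12.10 with the control siRNA, 13.08 with siRNA #1 and 13.11 with siRNA #2, the added poly-A controls 7.20, 8.13 and 7.87, and the hybridisation controls 12.03, 11.23 and 11.16. The difference between 3′ and 5′ probe sets of beta-actin, a sign of RNA integrity, was 0.48, 0.26 and 0.23. The same difference for Gapdh was -0.027, -0.015 and 0.010, and there the control arrays did not stand apart. In the marker and control averages and in beta-actin, both control arrays differed from all Ncl siRNA arrays. The part of these differences in each change against control was not tested.

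Against the control siRNA, 18 of the 21 probe sets rose with Ncl siRNA #1, 1 fell and 2 did not pass an adjusted p of 0.05. With Ncl siRNA #2, 17 rose, 1 fell and 3 did not pass. Among all probe sets, 27.1% passed with siRNA #1 and 28.5% with siRNA #2: 14.6% rose and 12.5% fell with siRNA #1, and 13% rose and 15.5% fell with siRNA #2. The median change of the 21 was 1.30 with siRNA #1 and 1.20 with siRNA #2, where the median over all probe sets was -0.05 and -0.03. At least 2-fold rises were called for 12 of the 21 with siRNA #1 and 13 with siRNA #2, against 3.49% and 3.53% of all probe sets. All 4 Ncl siRNA arrays lay above both control arrays on 18 of the 21 (20.1% of all probe sets) and below them on 2 (24% of all probe sets). The comparisons share their control arrays, so one does not repeat the other. In bulk RNA, a change in the number of cells that express a gene and a change in RNA per cell cannot be told apart.

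**Figure D1:**
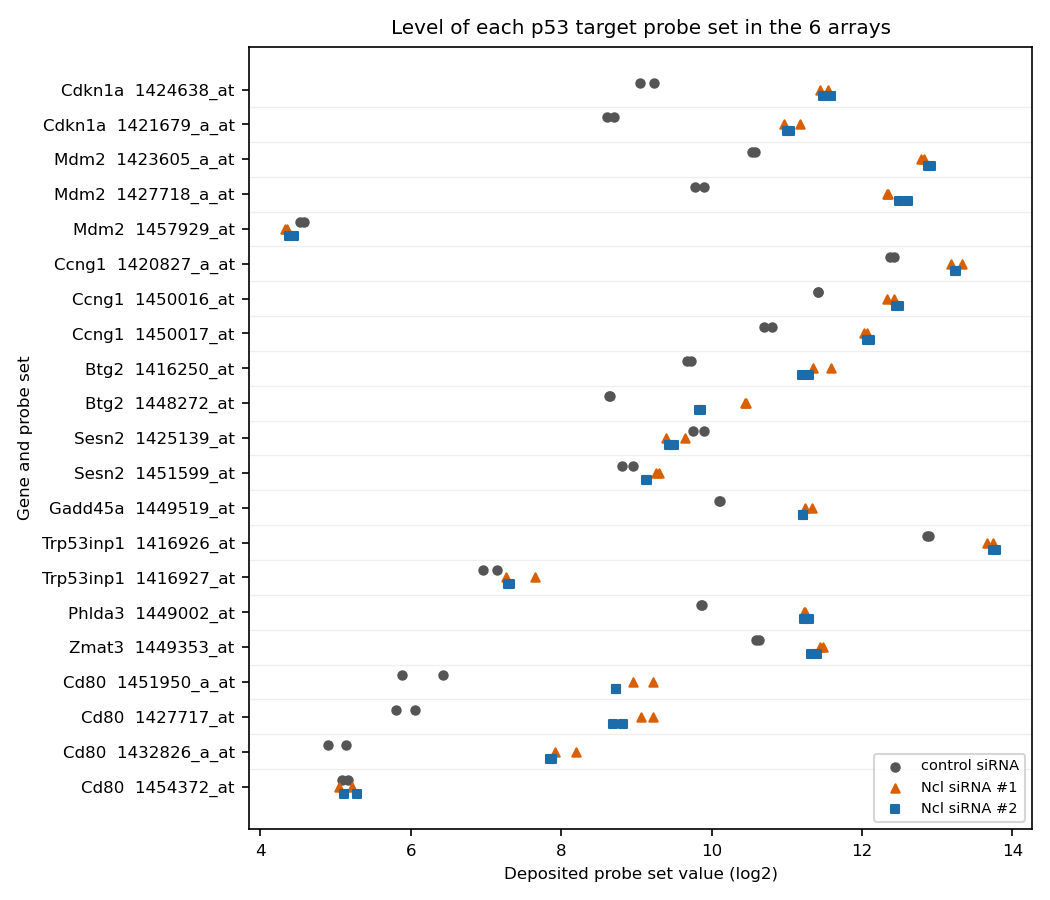
Deposited log2 value (horizontal axis) of each of the 21 probe sets (vertical axis) in each array, with grey circles for control siRNA, orange triangles for Ncl siRNA #1 and blue squares for Ncl siRNA #2, 2 arrays per group. The Ncl siRNA arrays lay above both control arrays on 18 probe sets, and Cd80 1454372_at, Mdm2 1457929_at and Sesn2 1425139_at did not share that order.

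The arrest genes were led by Cdkn1a, which encodes the p21 inhibitor of cyclin-dependent kinases. Its brightest probe set, 1424638_at, read 9.24 and 9.05 with the control siRNA, 11.55 and 11.44 with siRNA #1 and 11.49 and 11.59 with siRNA #2. The groups treated with an Ncl siRNA overlapped each other and stood clear of the control arrays. Cdkn1a rose 5.10-fold with siRNA #1 (log2 2.35, SE 0.08, n = 2 per group, limma adjusted p = 6.57e-13) and 5.26-fold with siRNA #2 (log2 2.40, SE 0.08, n = 2 per group, limma adjusted p = 3.84e-13). The second probe set, 1421679_a_at, gave 2.41 with siRNA #1 and 2.36 with siRNA #2.

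Btg2, an antiproliferative protein that recruits the machinery that shortens poly(A) tails, was read by a pair of probe sets. On 1416250_at the control arrays read 9.68 and 9.73, those of siRNA #1 11.59 and 11.35, and those of siRNA #2 11.20 and 11.29. On 1448272_at the readings were 8.65 and 8.64, then 10.44 and 10.46, then 9.86 and 9.83. On each set siRNA #1 read highest and control lowest. The rise with siRNA #1 was 1.76 (SE 0.08) and 1.81 (SE 0.08) on these sets, and with siRNA #2 it was 1.54 (SE 0.08) and 1.20 (SE 0.08), with limma adjusted p-values of 2.9e-09 or less throughout. Thus Btg2 was 3.40-fold and 3.50-fold above control with siRNA #1, and 2.91-fold and 2.30-fold with siRNA #2.

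Gadd45a, a small acidic protein of the DNA damage response that binds p21 and PCNA, read 10.12 and 10.10 with the control siRNA, 11.34 and 11.24 with siRNA #1 and 11.21 and 11.22 with siRNA #2. It rose 2.26-fold with siRNA #1 (log2 1.18, SE 0.06, n = 2 per group, limma adjusted p = 4.4e-10) and 2.15-fold with siRNA #2 (log2 1.10, SE 0.06, n = 2 per group, limma adjusted p = 7.42e-10). Both Ncl siRNA groups lay more than 1 log2 unit above the control arrays.

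Among genes of feedback on p53, Mdm2, the ubiquitin ligase that marks p53 for destruction, rose on 2 of 3 probe sets. On 1423605_a_at it read 10.57 and 10.54 with the control siRNA, 12.79 and 12.83 with siRNA #1 and 12.91 and 12.88 with siRNA #2. That was a rise of 4.77-fold with siRNA #1 (log2 2.25, SE 0.05, n = 2 per group, limma adjusted p = 7.49e-15) and of 5.07-fold with siRNA #2 (log2 2.34, SE 0.05, n = 2 per group, limma adjusted p = 2.69e-15). The probe set 1427718_a_at gave 5.67-fold and 6.55-fold. The third set, 1457929_at, read 4.32 to 4.58 on all arrays, below each array's median, and its differences of -0.21 (SE 0.16) and -0.13 (SE 0.16) did not pass (limma adjusted p = 0.375 and 0.632). So the Mdm2 rise was seen on the sets with readings above the array medians only.

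Ccng1, cyclin G1, which brings phosphatase PP2A to Mdm2, rose on all 3 of its probe sets, which carry the same sequence accession. The set 1420827_a_at read 12.38 and 12.43 with the control siRNA, 13.18 and 13.32 with siRNA #1 and 13.24 and 13.24 with siRNA #2. The rises on 1420827_a_at, 1450016_at and 1450017_at were 0.85 (SE 0.05), 0.97 (SE 0.05) and 1.30 (SE 0.06) with siRNA #1, and 0.84 (SE 0.05), 1.06 (SE 0.05) and 1.34 (SE 0.06) with siRNA #2. The 95% confidence interval of the first set with siRNA #1, 0.74 to 0.95, ended below that of the last, which began at 1.18, so the probe sets of this gene differed in the size of the rise. The limma adjusted p-values lay between 1.59e-11 and 1.39e-09.

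Trp53inp1, a stress protein that promotes p53 phosphorylation and autophagy, read 12.89 and 12.86 on 1416926_at with the control siRNA, 13.66 and 13.74 with siRNA #1 and 13.79 and 13.75 with siRNA #2. It rose by 0.82 (SE 0.04, limma adjusted p = 1.9e-10) with siRNA #1 and by 0.89 (SE 0.04, limma adjusted p = 5.17e-11) with siRNA #2. The other set, 1416927_at, read 7.14 and 6.96, then 7.64 and 7.27, then 7.32 and 7.29. It rose by 0.40 with siRNA #1 (SE 0.14, limma adjusted p = 0.0445), a call lost under 11 of 17 other settings (adjusted p 0.0554 to 0.296 in those), including without either control array, without replicate 1 of siRNA #1 (0.22) and without either array of siRNA #2. With siRNA #2 its difference of 0.26 (SE 0.14, limma adjusted p = 0.215) did not pass.

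Phlda3, a protein made of a pleckstrin homology domain that keeps Akt from the membrane, read 9.86 and 9.87 with the control siRNA, 11.24 and 11.22 with siRNA #1 and 11.23 and 11.29 with siRNA #2. The Ncl siRNA groups overlapped, and the control arrays lay apart. It rose 2.58-fold with siRNA #1 (log2 1.36, SE 0.06, n = 2 per group, limma adjusted p = 6.68e-11) and 2.62-fold with siRNA #2 (log2 1.39, SE 0.06, n = 2 per group, limma adjusted p = 3.88e-11). Zmat3, a zinc finger protein that binds RNA and is also called Wig1, read 10.63 and 10.58, then 11.49 and 11.44, then 11.32 and 11.41. It rose by 0.86 (SE 0.06, limma adjusted p = 1.28e-08) and by 0.75 (SE 0.06, limma adjusted p = 5.16e-08), that is 1.81-fold and 1.69-fold.

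Sesn2, sestrin 2, a leucine sensor that restrains mTORC1 and supports antioxidant defence, stood apart because its probe sets, drawn from the same sequence accession, went in opposite directions. On 1425139_at the control arrays read 9.75 and 9.90, those of siRNA #1 9.64 and 9.40, and those of siRNA #2 9.49 and 9.43. On 1451599_at the readings were 8.81 and 8.96, then 9.30 and 9.26, then 9.14 and 9.12. The Ncl siRNA arrays thus lay below the control arrays on the first set and above them on the second. The first fell by 0.31 with siRNA #1 (SE 0.09, limma adjusted p = 0.0206) and fell by 0.36 with siRNA #2 (SE 0.09, limma adjusted p = 0.00631). The second rose by 0.40 with siRNA #1 (SE 0.09, limma adjusted p = 0.0027) and by 0.25 with siRNA #2 (SE 0.09, limma adjusted p = 0.0474). The fall was lost without replicate 2 of the control (-0.23, adjusted p = 0.195, and -0.29, adjusted p = 0.0952), without replicate 2 of siRNA #1 for that siRNA (-0.18, adjusted p = 0.12), without replicate 2 of siRNA #2 for that one (-0.33, adjusted p = 0.0794) and with variances that follow no trend (adjusted p = 0.122 and 0.0734). The rise with siRNA #2 was lost under 7 of 17 settings (adjusted p 0.0524 to 0.314 in those), among them the replicate block (adjusted p = 0.0696), centring of arrays on their medians (0.20), and leaving out any 1 of the control or siRNA #2 arrays. These data therefore gave no single direction for Sesn2.

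Cd80, a membrane protein of antigen presenting cells that binds CD28 and CTLA-4 on T cells, was read by 4 probe sets, of which 3 rose with each siRNA. On 1451950_a_at the control arrays read 6.43 and 5.88, those of siRNA #1 9.22 and 8.96 and those of siRNA #2 8.73 and 8.72. On 1427717_at the readings were 6.05 and 5.80, then 9.22 and 9.06, then 8.69 and 8.82. The control readings lay just above the array medians and the Ncl siRNA arrays well above them, with siRNA #1 above siRNA #2 on both sets. The rise was 7.67-fold (log2 2.94, SE 0.15, n = 2 per group, limma adjusted p = 2.45e-10) and 5.94-fold (log2 2.57, SE 0.15, n = 2 per group, limma adjusted p = 9.59e-10) on the first set with siRNA #1 and #2. It was 9.28-fold and 7.10-fold on the second. On 1432826_a_at, whose control readings of 4.90 and 5.13 lay below the array medians, the measured differences were 3.04 and 2.85. No detection call was used here, so those control readings are not shown to lie above background and no fold is given for this set. The control readings of 1451950_a_at and 1427717_at, just above the medians, are not shown to lie above background either. The folds given for those sets carry that limit. The fourth set, 1454372_at, carries the same accession as 1432826_a_at, read 5.05 to 5.29 on every array, below the medians, and did not pass (0.01, SE 0.17, limma adjusted p = 0.988, and 0.07, SE 0.17, limma adjusted p = 0.831, with 95% confidence intervals of -0.36 to 0.37 and -0.30 to 0.43).

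Other markers of leukocytes and antigen presenting cells were read beside Cd80. Of 13 measured, 1 rose with each siRNA (Laptm5, 0.26 and 0.25), 2 fell (Cd74, by values of -0.77 and -0.89, and Lyz2, by -3.57 and -3.47) and 10 did not pass. The list averaged 5.83 and 5.93 with the control siRNA, 5.38 and 5.44 with siRNA #1 and 5.47 and 5.51 with siRNA #2. Cd86, the closest relative of Cd80, had means of 4.32, 4.09 and 4.36 in the 3 groups (limma adjusted p = 0.36 and 0.917), and Itgam lay below the lower quartile on all 6 arrays.

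**Figure D2:**
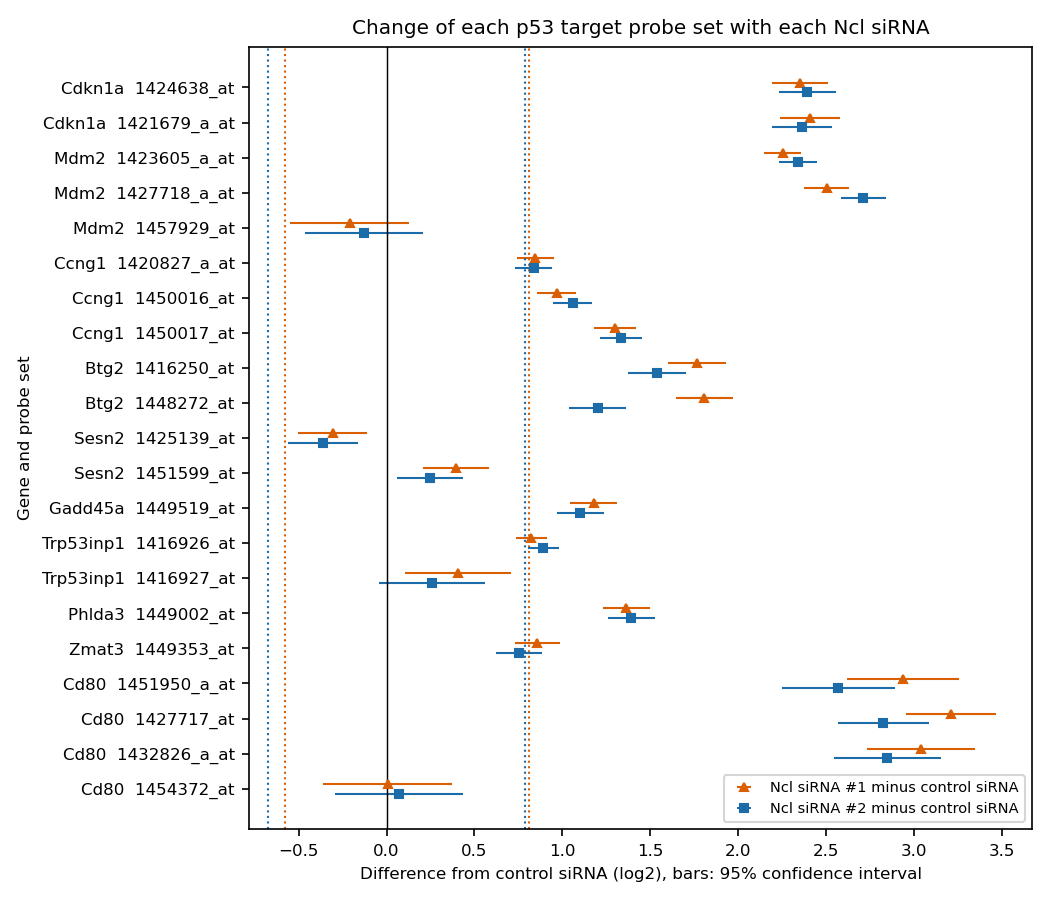
Difference from control siRNA (log2, horizontal axis) of each probe set, with orange triangles for Ncl siRNA #1, blue squares for Ncl siRNA #2 and bars for the 95% confidence interval of the limma fit, not adjusted for multiple tests. Dotted lines give the 5th and 95th percentiles of all probe sets for each siRNA (-0.58 and 0.81, -0.68 and 0.78). Cd80, Mdm2 and Cdkn1a reach beyond 2, and Sesn2 lies on both sides of 0.

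Ordered by the change of the brightest probe set with siRNA #1, the genes ran Cd80 (2.94), Cdkn1a (2.35), Mdm2 (2.25), Btg2 (1.76), Phlda3 (1.36), Gadd45a (1.18), Zmat3 (0.86), Ccng1 (0.85), Trp53inp1 (0.82) and Sesn2 (-0.31). With siRNA #2 it ran Cd80 (2.57), Cdkn1a (2.40), Mdm2 (2.34), Btg2 (1.54), Phlda3 (1.39), Gadd45a (1.10), Trp53inp1 (0.89), Ccng1 (0.84), Zmat3 (0.75) and Sesn2 (-0.36). Confidence intervals overlapped between Cdkn1a (2.19 to 2.51) and Mdm2 (2.15 to 2.36) with siRNA #1. They also overlapped among Zmat3 (0.73 to 0.99), Ccng1 (0.74 to 0.95) and Trp53inp1 (0.74 to 0.91), and between Phlda3 (from 1.23) and Gadd45a (up to 1.31). With siRNA #2 Cd80 (2.25 to 2.89) overlapped Cdkn1a (2.24 to 2.55) and Mdm2 (2.23 to 2.45). Btg2 (1.37 to 1.70) overlapped Phlda3 (1.26 to 1.53) with that siRNA, and Gadd45a (from 0.97) overlapped Trp53inp1 (up to 0.98). Trp53inp1 (0.80 to 0.98), Ccng1 (0.73 to 0.94) and Zmat3 (0.62 to 0.88) overlapped one another. The order within such neighbours, the first place of Cd80 with siRNA #2 included, is not settled. The intervals of Mdm2 and Btg2 (1.60 to 1.93) with siRNA #1 did not overlap. These are changes of log2 values on probe sets of different response, and the order holds for these probe sets.

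The Ncl siRNA arrays were then compared with each other, a comparison that uses no control array in its difference and in which all 10 lung epithelium markers missed the threshold, while 8 of 10 embryonic stem cell markers were lower with siRNA #2 (median -0.24). The part of that shift in these differences was not tested. It asks whether the response depended on the duplex. Of the 21 probe sets, 1 was lower with siRNA #2 than with siRNA #1, none was higher, and 20 did not pass, where 1.95% of all probe sets were lower and 0.959% higher by limma. At an unadjusted p under 0.05, 4 of the 21 were lower and 1 was higher, against 11.3% and 5.72% of all probe sets. The lean over all probe sets depended on the scaling. Of the calls at an adjusted p of 0.05, 33% were higher with siRNA #2 as deposited. That share was 69.4% with arrays centred on their 75th percentile and 54.4% after quantile normalization. The set that passed was Btg2 1448272_at, at 9.86 and 9.83 with siRNA #2 against 10.44 and 10.46 with siRNA #1. The difference was -0.61 (SE 0.08, n = 2 per group, limma adjusted p = 2.3e-04), a call lost without a variance trend (limma adjusted p = 0.0768). On the other Btg2 set the difference was -0.22 (95% confidence interval -0.39 to -0.06, limma adjusted p = 0.143), and -0.35 without replicate 2 of siRNA #1.

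For Cdkn1a the difference was 0.04 on the brightest set (95% confidence interval -0.12 to 0.20, limma adjusted p = 0.818). The Mdm2 differences were 0.09 (-0.02 to 0.19), 0.21 (0.08 to 0.34) and 0.08 (-0.26 to 0.42), and none passed (limma adjusted p = 0.396, 0.078 and 0.844). The last of these is from the set that read below the array medians. The set at 0.21 passed with each array centred on its 75th percentile (0.33, adjusted p = 0.0268) and among probe sets at or above the median signal (adjusted p = 0.04). Cd80 was lower with siRNA #2 on the 3 sets that rose, by values of -0.37, -0.39 and -0.19 (limma adjusted p = 0.22, 0.104 and 0.533). The intervals of the first and second of these sets, -0.69 to -0.05 and -0.64 to -0.13, are wide. Without replicate 2 of siRNA #1 the difference on the second, 1427717_at, was -0.47. For Phlda3, Gadd45a, Zmat3 and Ccng1 the differences ran from -0.10 to 0.09, and none passed.

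**Figure D3:**
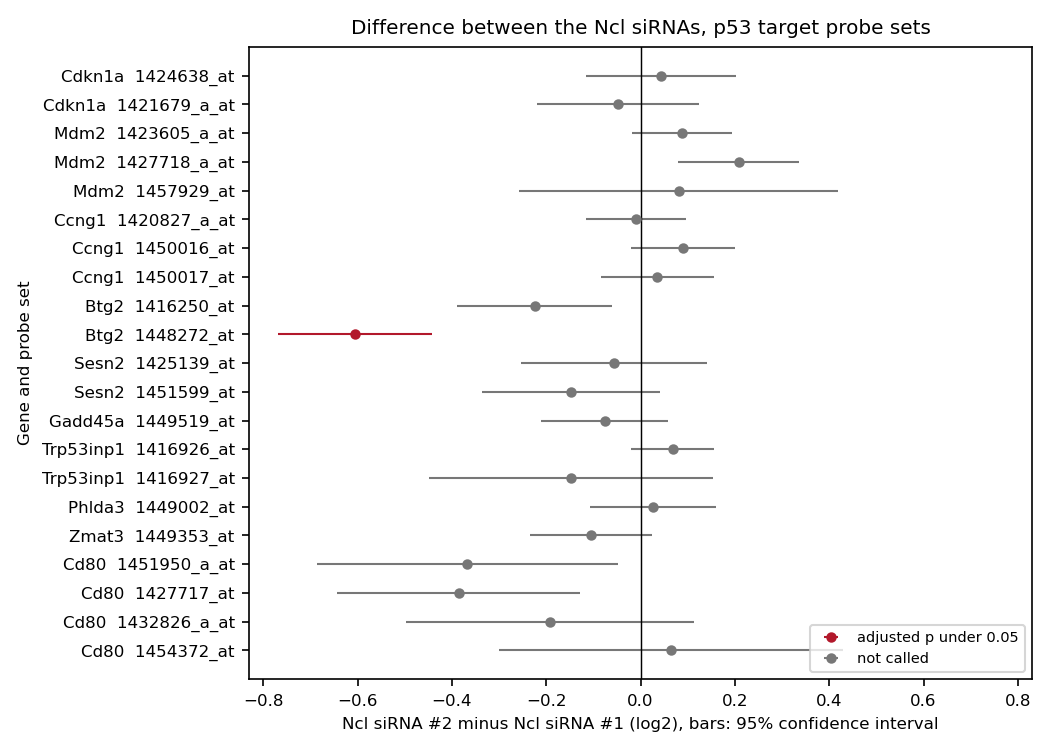
Ncl siRNA #2 minus Ncl siRNA #1 (log2, horizontal axis) for each probe set, with bars for the 95% confidence interval, not adjusted for multiple tests. Btg2 1448272_at at -0.61, in red, is the set that passed an adjusted p of 0.05, and 20 sets in grey did not pass.

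Other genes of the pathway were described on the brightest probe set of each gene, by counts. Over the brightest probe sets of all 18193 genes, 18.9% rose and 15.4% fell with siRNA #1, and 16.7% rose and 20% fell with siRNA #2. Of 12 measured genes listed as arrest and feedback targets outside the 10, 10 rose and 2 fell with each siRNA (medians 0.75 and 0.66). Plk2 and Plk3, polo-like kinases of the stress response, rose by 2.21 and 1.41 with siRNA #1 and by 2.49 and 1.93 with siRNA #2, and Sfn, the arrest protein 14-3-3 sigma, rose by 2.00 and 2.11. Ptprv, a receptor-type phosphatase, rose by 1.75 and 1.07. Cdkn1b, which encodes the related inhibitor p27, fell by 0.55 and fell by 0.37. It was put on the list as an arrest gene, and whether p53 acts on it was not tested.

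Of 13 apoptosis targets, 11 rose and 2 did not pass with siRNA #1, and 11 rose and 1 fell with siRNA #2. Pmaip1, the BH3 protein Noxa, rose by 2.44 and 2.80, Perp, a membrane protein of desmosomes, by 2.34 and 2.57, Fas, a death receptor, by 1.84 and 2.09 from uneven control readings of 5.65 and 3.99 (1.01 and 1.26 without replicate 2 of the control), and Apaf1, the core of the apoptosome, by 1.29 and 1.47. Their medians were 0.72 and 0.60.

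Repair and nucleotide supply targets did not move as one. Of 9 measured, 3 rose and 2 fell with siRNA #1, and 2 rose and 4 fell with siRNA #2 (medians -0.03 and -0.12). After quantile normalization 3 rose and 4 fell with siRNA #1. Ercc5, a nuclease of excision repair, rose by 1.10 and 1.05, and Polk, a polymerase that copies damaged templates, by 0.99 and 0.80. Pcna, the sliding clamp of replication, fell by 0.33 and fell by 0.39. Ddb2, a sensor of ultraviolet damage, was at -0.28 with siRNA #1 (limma adjusted p = 0.146, and -0.48, adjusted p = 0.0271, without replicate 1 of the control) and fell by 0.64 with siRNA #2. Of 9 metabolic and redox targets, 5 rose and 1 fell with each siRNA. With arrays centred on the 75th percentile 3 rose and 2 fell with siRNA #1. Lpin1, a phosphatidate phosphatase, rose by 1.00 and 0.88, Cpt1c by 0.76 and 0.57 and Gpx4, a lipid peroxidase, by 0.51 and 0.21 (0.14 with siRNA #2 without replicate 1 of the control, adjusted p = 0.167, and 0.15 without replicate 2 of siRNA #2, adjusted p = 0.158), while Tigar, which lowers glycolytic flux, fell by 0.88 and fell by 1.22.

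**Figure D4:**
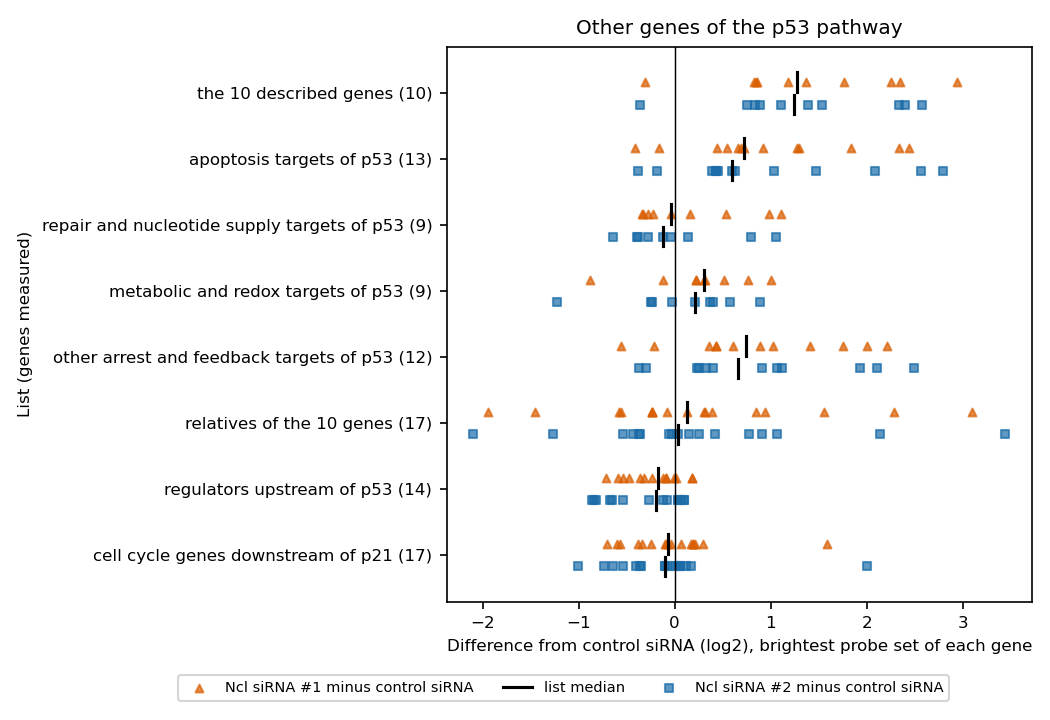
Difference from control siRNA (log2, horizontal axis) of each gene of each list (vertical axis, number of genes measured in brackets) on its brightest probe set, with orange triangles for Ncl siRNA #1, blue squares for Ncl siRNA #2 and black bars for list medians. The 10 described genes have medians of 1.27 and 1.25, and the lists of upstream regulators lie at -0.18 and -0.19.

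Relatives of the 10 genes went both ways, with 6 of 17 that rose and 5 that fell with each siRNA, and medians of 0.12 and 0.04 whose sign depends on the scaling. Cdkn1b, Mdm4, Sesn1 and Cd86 stand on this list and on another. Phlda1, a pleckstrin homology protein related to Phlda3, rose by 3.10 and 3.44, while Phlda2, an imprinted gene of the same family, fell by 1.45 and fell by 1.27. Gadd45g, the relative of Gadd45a, rose by 2.28 and 2.14. Zmat4, a zinc finger relative of Zmat3, fell by 1.94 and fell by 2.10.

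Regulators upstream of p53 were mostly lower or did not pass. Of 14 measured, 1 rose and 7 fell with siRNA #1, and 7 fell and 7 did not pass with siRNA #2. By the mean over both siRNAs, the damage kinases Chek2, Atm, Atr and Chek1 had the largest changes of the list. Chek2 fell by 0.71 and fell by 0.82, Atm fell by 0.54 (-0.35 and not past the threshold without replicate 1 of the control, adjusted p = 0.0765) and fell by 0.84, Atr fell by 0.36 and fell by 0.86, and Chek1 fell by 0.47 and fell by 0.65. Mdm4, the partner of Mdm2, fell by 0.23 and fell by 0.54. Npm1, nucleophosmin, was at 0.01 and 0.04 and did not pass, while the ribosomal protein gene Rpl11 fell by 0.12 and fell by 0.27.

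Cell cycle genes downstream of p21 did not move one way. Of 17 measured, 4 rose and 6 fell with siRNA #1, and 2 rose and 7 fell with siRNA #2 (medians -0.07 and -0.10). With arrays centred on the 75th percentile 2 rose and 9 fell with siRNA #1. Rb1, the retinoblastoma protein through which p21 acts, rose by 1.59 and 2.01, while its relative Rbl1 fell by 0.71 and fell by 1.01. Cdk1, the kinase of mitosis, fell by 0.57 and fell by 0.65, and Birc5, survivin, fell by 0.60 and fell by 0.74. Ccna2, Ccnb2 and Plk1, other genes of dividing cells, were at -0.10, -0.04 and 0.07 with siRNA #1. With siRNA #2 they were at 0.01, -0.10 and 0.03, and none passed with either siRNA. Cdc20, from the same list, rose by 0.21 and 0.17. Bub1 and Ccnd1 rose by 0.17 and 0.30 with siRNA #1 and did not pass with siRNA #2 (0.06 and -0.07). With arrays centred on the 75th percentile, 1 of the 17 rose with siRNA #2.

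The genes whose pattern over the 6 arrays lay nearest to Cdkn1a, Mdm2 and Cd80 were sought among 16433 other genes by Euclidean distance of log2 values after each gene's control mean was taken away. For Cdkn1a they were Irs2 (0.18), Rbms1 (0.23) and Rtkn (0.24). For Mdm2 they were Rbms1 (0.09), Plk2 (0.23) and Ltbp2 (0.23). For Cd80 they were Gria3 (0.32), Fam13c (0.34) and Amotl1 (0.38). Rbms1, an RNA-binding protein, stood on both of the first lists, at 2.24 with siRNA #1 and 2.40 with siRNA #2. A small distance over 6 arrays in 3 groups says that the sizes of the changes were alike.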

How the data were processed

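The series held 6 Affymetrix arrays, 2 per group. The authors deposited log2 probe set values, already normalized between arrays. How background was corrected and how probes were summarised and normalized is not stated there. RNA was extracted with a Qiagen kit and labelled with an Affymetrix IVT kit, per the labels' protocols. Probe sets were named from the platform annotation, where 34945 tested probe sets had 1 symbol, 932 several and 9160 none. The identifier of 34741 was found in the GRCm38.p6 gene table and no name changed. The 64 array controls stayed out of the tests.

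One linear model with a mean per group was fitted to all 45037 probe sets in limma 3.58.1 (R 4.3.3), with variances that follow the mean (3 residual and 13 prior degrees of freedom), with a Benjamini-Hochberg adjustment across all of them and a threshold of 0.05. The number of arrays limits the precision. On simulated data of 45037 probe sets with known changes added, Ncl siRNA #1 minus control found 34 of 67 changes of 0.5 (log2), 67 of 67 of 1 and 66 of 66 of 2, with 6 false calls. For siRNA #2 it was 32 of 67, 67 of 67 and 66 of 66, with 16 false calls. Far fewer probe sets were changed there than were called in the arrays, and its noise was independent between probe sets. These shares may therefore not carry over to the arrays. The genes and lists were chosen with earlier results of these data known. Named were the 10 genes, Ncl, up to 4 genes per list with the largest mean change over both siRNAs, markers, and the 3 nearest patterns. Cdkn1b, Mdm4, Npm1, Rpl11, Ccna2, Ccnb2, Plk1, Cdc20, Bub1 and Ccnd1 were named after their values were seen. No fits without single arrays are given for Rpl11, Cdc20, Bub1 and Ccnd1. Alternatives changed the scaling, the variance model, the arrays or probe sets used, the threshold and the replicate block; leaving out arrays for the named pathway genes was chosen after seeing the data.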

Additional observations from a re-analysis of the deposited data

Results flagged for a closer look

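Btg2 probe set 1448272_at differed between the Ncl siRNAs, with a difference of -0.61 (siRNA #2 minus siRNA #1, SE 0.08, limma adjusted p = 2.3e-04). The difference is between the siRNAs and leaves the control arrays out, while its error comes from the fit over all 6 arrays. Both siRNAs lay above control on this probe set. The other Btg2 probe set had the same direction (-0.22, limma adjusted p = 0.143) and did not pass. The call on 1448272_at was lost without a variance trend (limma adjusted p = 0.0768). Among all probe sets, 1.95% were called lower with siRNA #2 than with siRNA #1.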

How the results depend on the processing

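Over 17 other settings, no called change of the 21 probe sets turned its direction, and 55 of 63 pairs of a probe set and a comparison stayed on their side of the threshold. In 5 pairs a call was lost (Sesn2 on both sets, Trp53inp1 1416927_at and Btg2 1448272_at) and in 3 one was gained. Without 1 array, 17 to 18 probe sets rose and 0 to 1 fell with siRNA #1, 16 to 17 rose and 0 to 1 fell with siRNA #2, and between the siRNAs 0 were higher and 1 to 3 lower. The 3 were reached without replicate 2 of siRNA #1, where 6024 probe sets of the array were called in place of 1309. A group left with 1 array is taken to vary like the others. The falls against control went from 1 to 0 without a variance trend and with a 2-fold threshold for both siRNAs, and at an adjusted p under 0.01 for siRNA #1. Between the siRNAs, the lower count went from 1 to 0 without a trend (Btg2, adjusted p = 0.0768) and with a 2-fold threshold, and the higher count from 0 to 1 with the 75th percentile as centre and among probe sets above the median signal. The cause was not tested. Over all probe sets the calls between the siRNAs were 107 without a trend, 2104 above the median signal, 741 without replicate 1 of siRNA #1, 285 and 289 without either array of siRNA #2, 562 at 0.01 and 93 at 2-fold. At 2-fold, 2092 and 2400 probe sets were called against control, in place of 12215 and 12835. The 75th percentile as centre moved the median of all probe sets from -0.05 to -0.17 with siRNA #1, and of its calls 37.2% were higher in place of 54%. Between the siRNAs the higher share was 33% as reported, 69.4% with that centre and 54.4% after quantile normalization. With that centre or quantile normalization Ddb2 also fell with siRNA #1 (-0.40 and -0.41). Centred on medians, Gpx4 did not pass with siRNA #2 (adjusted p = 0.054). The relatives' median with siRNA #1 was -0.01 after quantile normalization, and with siRNA #2 it was -0.01 with arrays centred on medians.

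Same-numbered replicates did not deviate together (correlations of 0.016, 0.00074 and 0.017 over probe sets), so the numbers give no pairing. With the replicate block, 18 probe sets rose with siRNA #1 and 16 with siRNA #2, and 12352 and 12770 probe sets were called in all.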
